A study of Mus musculus with 14 samples.

Results

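Regulatory T cells (Tregs) of the colon lamina propria (coLP) were compared with CD25- Tregs of the Peyer's patches (PP) in mice whose Tregs had lost Junb, to describe which differences between the 2 sites stand without this transcription factor. Every JunB-deleted library of the inducible line entered the contrast, 3 from coLP and 2 from PP, which made 5 of the 14 RNA-seq libraries of the series. The animals were JunB F/F and carried a tamoxifen-dependent Cre expressed from the Foxp3 locus together with a Rosa26-tdTomato reporter, and they are called iKO. They received 3 doses of 8 mg tamoxifen in olive oil by gavage on days 0, 1 and 3 at 10 to 12 weeks of age, and cells were sorted on day 7. Replicate 1 of each site came from a male of genotype Foxp3ERT2cre+, and the other libraries came from Foxp3ERT2cre+/+ females.

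Sorted cells were TCRb+CD4+Foxp3(EGFP)+tdTomato+ at both sites, and those from PP were in addition CD25-. Cre was confined to cells that use the Foxp3 promoter, and tdTomato marked cells that had activated it. Site and CD25 gate therefore changed together and cannot be told apart. Preparation differed as well, since the study's methods give several steps for colon that they do not give for PP. These were DTT, incubations in EDTA, dispase in the digestion and a Percoll gradient, and they cannot be told apart from site either. The same contrast in heterozygous animals, JunB F/+ with otherwise the same alleles, tamoxifen and gates (iHET, 3 coLP and 2 PP libraries), is used only to show which differences also stand with an intact Junb allele. No untreated or Cre-negative cells entered the comparison.

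JunB is a subunit of AP-1, a family of dimeric transcription factors in which Jun proteins pair with Fos, BATF or other partners and bind a short palindromic motif. In T cells, dimers of BATF with Jun proteins act with IRF4 at composite sites. Tregs of the colon comprise RORgt+ cells, which develop in response to the microbiota, and GATA3+ cells that bear the IL-33 receptor ST2. Tregs of the Peyer's patches include T follicular regulatory (Tfr) cells, which express Bcl6 and CXCR5, reach the germinal centre and can lack CD25.

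The windows just before the transcription start of 3 genes are shown first. Havcr2 encodes the inhibitory receptor TIM-3 and was among the genes with the lowest p for the difference between sites. Gzmb encodes granzyme B and is shown because its site difference was called in iHET and near 0 in iKO. Nfkbia encodes the inhibitor IκBα, which NF-κB itself induces. Each line holds the 250 bases before the start given by RefSeq for GRCm38.p6, 5′ to 3′ on the strand of the gene. Capitals mark the AP-1 letters TGANTCA in Havcr2 and Gzmb, where N was any base, here T in Havcr2 and G in Gzmb. In Nfkbia they mark the NF-κB letters, which were searched as GGGA, any base and TTTCC. Either strand counted as a match.
Havcr2 (chr11:46454681-46454930, plus strand): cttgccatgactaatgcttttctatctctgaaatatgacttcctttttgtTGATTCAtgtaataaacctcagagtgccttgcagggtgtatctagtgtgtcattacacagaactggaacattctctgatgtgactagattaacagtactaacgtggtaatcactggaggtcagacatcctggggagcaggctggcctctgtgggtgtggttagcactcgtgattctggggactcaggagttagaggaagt
Gzmb (chr14:56262335-56262584, minus strand): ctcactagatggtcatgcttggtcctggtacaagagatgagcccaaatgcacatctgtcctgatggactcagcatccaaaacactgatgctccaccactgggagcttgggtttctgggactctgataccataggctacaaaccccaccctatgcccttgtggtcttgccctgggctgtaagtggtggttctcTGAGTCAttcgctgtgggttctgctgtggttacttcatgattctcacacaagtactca
Nfkbia (chr12:55492648-55492897, minus strand): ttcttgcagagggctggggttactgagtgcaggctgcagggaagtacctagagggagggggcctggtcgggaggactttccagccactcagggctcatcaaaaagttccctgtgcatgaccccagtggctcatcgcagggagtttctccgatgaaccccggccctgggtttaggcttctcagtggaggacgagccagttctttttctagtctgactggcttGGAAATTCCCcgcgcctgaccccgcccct

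The AP-1 letters lay at positions -200 to -194 from the start of Havcr2 and at -58 to -52 from that of Gzmb, and the NF-κB letters at -29 to -20 from that of Nfkbia. Of the 32851 windows of this length in the table, 6.75% held the AP-1 letters, 0.356% the NF-κB letters, 1.55% the related letters TGACGTCA, and 0.0974% a composite BATF-IRF pattern of TTTC, 4 bases of any kind and the AP-1 letters, so every match of the composite is also an AP-1 match. The short letters GCGTG, to which the aryl hydrocarbon receptor binds, were in 28.2% of windows. A window was given for 532 of the 699 genes called higher in coLP and for 393 of the 568 called lower, too few to compare the sets, so no share is given for them. None of the 5 patterns was found in the windows of Ccr2, Bcl6 and Ccr9, which are described below.

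The deposited values were whole-number read counts per gene. The 5 iKO libraries held 26274861 to 32271587 counts, which placed the level of 3 counts between 0.093 and 0.114 counts scaled to a common library size (CPM), and the 5 iHET libraries held 26503163 to 35508709. Across the 10 libraries the first principal component took 36.5% of the variance and separated all coLP from all PP libraries. Correlations of log2 CPM were 0.932 to 0.96 within a site and 0.892 to 0.933 between sites among the iKO libraries. Junb (ENSMUSG00000052837.6, chromosome 8, 84974484 to 84978718, GRCm38) averaged 1010 CPM in coLP of iKO against 7620 in coLP of iHET, and 901 against 4860 in PP. All iKO values lay below all iHET values at the same site. Within iKO the locus gave 1008, 1007 and 1029 CPM in coLP and 908 and 919 in PP, a log2 difference of 0.15 ± 0.08 (SE, n = 3 and 2, as for every contrast of the iKO sites) that did not pass the test (FDR 0.298). The labelled cell type carried its markers in every iKO library: Foxp3 at 74.2 to 134 CPM, Cd4 at 969.5 to 1063, and Cd3e, which encodes a CD3 chain, at 796 to 1078. Of the Foxp3 exon bases 1443 are shared with neighbouring genes, and reads on such bases were not assigned to either gene.

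Without JunB the 2 sites differed in 1267 of the 17362 genes tested, or 7.3% (edgeR's quasi-likelihood test, Benjamini-Hochberg FDR under 0.05). Of these, 699 (4.03% of genes tested) were higher in coLP and 568 (3.27%) were lower, and the median over all genes tested was a log2 fold change of 0.003. Scaled by library size alone, 664 were higher and 787 lower, with that median at -0.07. Genes higher in coLP differed by more, at a median of 1.40 on the log2 scale with 241 genes past 4-fold, whereas those lower in coLP had a median of -0.91 with 69 genes past 4-fold. The libraries of the 2 sites did not overlap for any called gene, and 45.2% of all genes tested showed no overlap. A call from 3 and 2 libraries nearly requires such separation, so it is not a further result about the called genes. For most calls the highest library of a site was under 2 times the lowest, a narrow spread that the call itself favours. This spread was not compared with each gene's own difference between sites. Of the genes called higher, 568 (81.3%) had a highest coLP library under 2 times the lowest, and of those called lower, 551 (97%) met the same limit between the PP libraries. In such bulk libraries, fewer cells of a type and less RNA per cell cannot be told apart. The count rested on the PP libraries, where leaving out either left 1 library at that site. With coLP replicate 2 left out, 448 genes were called. Every one of the 1267 that could still be tested kept its direction with 1 library left out. Groups that do not overlap leave little room for a change of sign, so this does not measure how stable the calls are. With either PP library left out, each of the 25 gene lists described here held 0 to 3 called genes.

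Among the genes higher in coLP, Ccr2 and Ly6a had the lowest p-values. Ccr2 (ENSMUSG00000049103.14, chromosome 9, 124101950 to 124113557), the receptor for the chemokine CCL2, reached 216, 202 and 180.2 CPM in coLP and 23.7 and 28.6 in PP, 7.62-fold higher (log2 2.93 ± 0.15, FDR 0.00312). Ly6a (chromosome 15, 74994877 to 74998031), which encodes the surface protein Sca-1, stood between 231 and 299.7 CPM in coLP and at 39.4 in both PP libraries (6.6-fold). Among the 12 genes with the lowest p, the site difference was widest for Lmna (chromosome 3, 88480147 to 88509956), the gene of the nuclear envelope proteins lamin A and C, at 564, 1047 and 605 CPM against 13.5 and 12.4 (56.8-fold). For these 3 genes the lowest coLP library was several times the highest PP library. Vim (chromosome 2, 13573927 to 13582826), the intermediate filament vimentin, was 5.04-fold higher, at 801, 893 and 694 CPM against 149 and 167. Pxdc1 read 91.2, 148 and 139.6 CPM in coLP against 1.64 and 2.9 in PP, 55.3-fold, and 306 of its exon bases are shared with Gm15908.

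**Figure D1:**
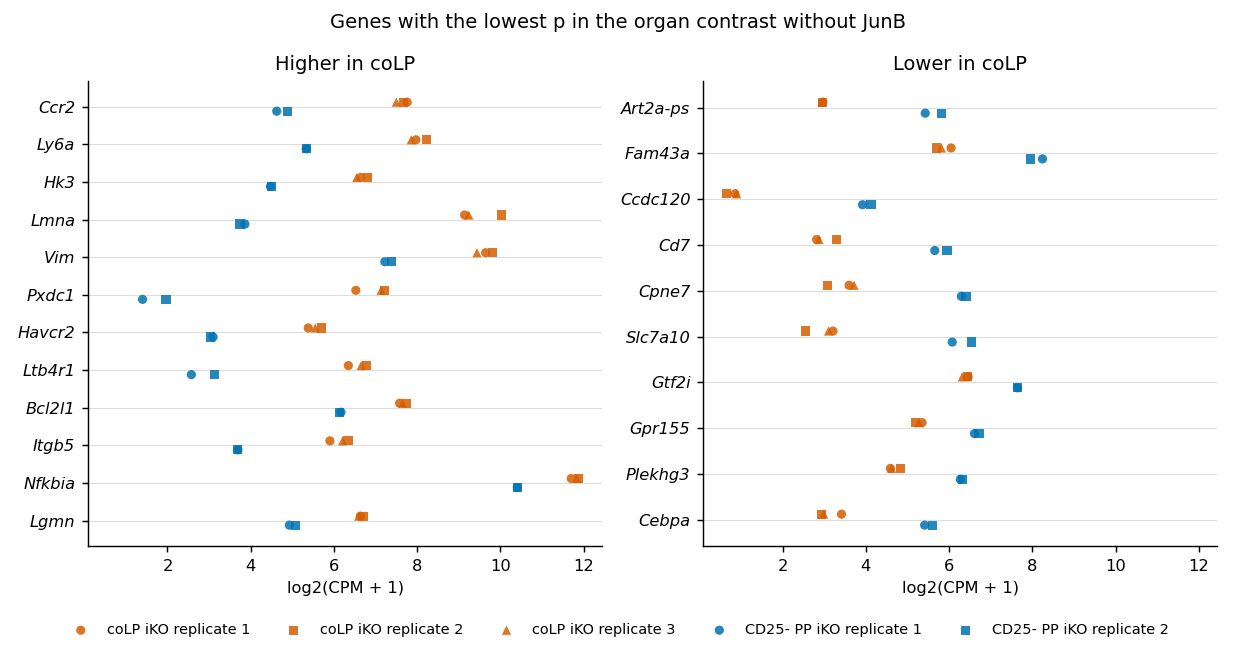
Values of the leading genes by p described in the text, 12 higher and 10 lower in coLP, as log2(CPM + 1), in the 3 coLP iKO libraries (orange) and the 2 CD25- PP iKO libraries (blue), 1 point per library. For every gene the orange and blue points separate, from the 2.37-fold difference of Gtf2i to the 56.8-fold difference of Lmna.

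Havcr2 (chromosome 11, 46454935 to 46481255) was 6.23-fold higher, at 40.7, 51.4 and 46 CPM in coLP and 7.56 and 7.16 in PP, and Ltb4r1, the high-affinity receptor for leukotriene B4, was 15.2-fold higher. Itgb5, an integrin beta chain, was 5.93-fold higher, and the lysosomal protease legumain, encoded by Lgmn, was 3.18-fold higher. Hk3, a hexokinase, was 4.71-fold higher, at 92.8 to 112 CPM against 21.2 and 21.6. Bcl2l1, which encodes the survival protein Bcl-xL, gave 190.3, 214 and 200.1 CPM against 71 and 69.2 (2.87-fold). Nfkbia (chromosome 12, 55489410 to 55492647) was abundant at both sites, with 3336, 3789 and 3664 CPM in coLP and 1358 and 1371 in PP (2.63-fold). All 12 of these leading genes were also called higher in coLP of iHET, by log2 fold changes of 1.82 to 6.20.

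The genes lower in coLP began with Art2a-ps, a pseudogene of the ADP-ribosyltransferase family, at 6.82, 6.79 and 6.7 CPM in coLP and 42 and 55.2 in PP, 7.15-fold lower. Its sequence resembles that of its relative Art2b, so its count is uncertain. Fam43a was 4.81-fold lower, at 65.2, 50.8 and 55.3 CPM against 302 and 247. Cd7 (chromosome 11, 121036747 to 121039418), an immunoglobulin-superfamily receptor of T cells, gave 6.04, 8.76 and 6.32 CPM in coLP and 49.4 and 60.9 in PP (7.8-fold lower). The neutral amino acid transporter gene Slc7a10 was 11.4-fold lower, at 8.25, 4.82 and 7.59 CPM against 66.4 and 91.4. Cpne7, of the calcium-dependent copine family, was 7.88-fold lower, and Cebpa, which encodes the transcription factor C/EBPα, was 5.74-fold lower. Smaller and very even differences separated Gtf2i, the transcription factor TFII-I (86.8, 86.2 and 78.7 CPM against 199 and 198), Gpr155 and Plekhg3. Ccdc120 read 0.81, 0.569 and 0.857 CPM in coLP and 14.1 and 16.4 in PP, 19.6-fold lower. Of the 10 genes named here, 8 were also called lower in coLP of iHET, and the exceptions were Ccdc120 (log2 -1.64, FDR 0.179) and Gpr155 (-1.17, FDR 0.0817). No gene passed the test of the difference between the 2 contrasts, described last, so a call in one genotype alone is not shown to be a difference between genotypes.

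Most genes of the list for RORgt+ colonic Tregs were higher in coLP without JunB. Of the 11 genes of this list, 9 were called higher, 1 lower and 1 was not called, with a median log2 fold change of 1.69, against 4.03% and 3.27% of all genes called in each direction. These 2 shares are the background for the calls of every list below. Rora, a nuclear receptor, reached 629, 821 and 749.9 CPM in coLP and 203 and 176 in PP, 3.87-fold higher (FDR 0.00355). Il23r, the specific chain of the IL-23 receptor, gave 9.06, 9.06 and 11 CPM against 2.32 and 2.09. The sites did not overlap for either gene. The cytokine gene Il10 was higher by less, at 347, 268 and 235 CPM against 161 and 167 (1.72-fold, FDR 0.0445), and Ccr2, Ccr6, Cxcr6, Il1r1 and Havcr2 were among the genes called higher. Maf, which encodes a transcription factor that RORgt+ Tregs need, went the other way, with 206, 201 and 219 CPM in coLP and 363 and 370.5 in PP. Ahr, the aryl hydrocarbon receptor, read 272, 228 and 238 CPM against 233 and 232, and the groups overlapped. In iHET, 8 of the 9 genes higher here were called higher as well, and Il1r1 was not (FDR 0.0978). With either PP library left out, 3 genes of the list were called higher.

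**Figure D2:**
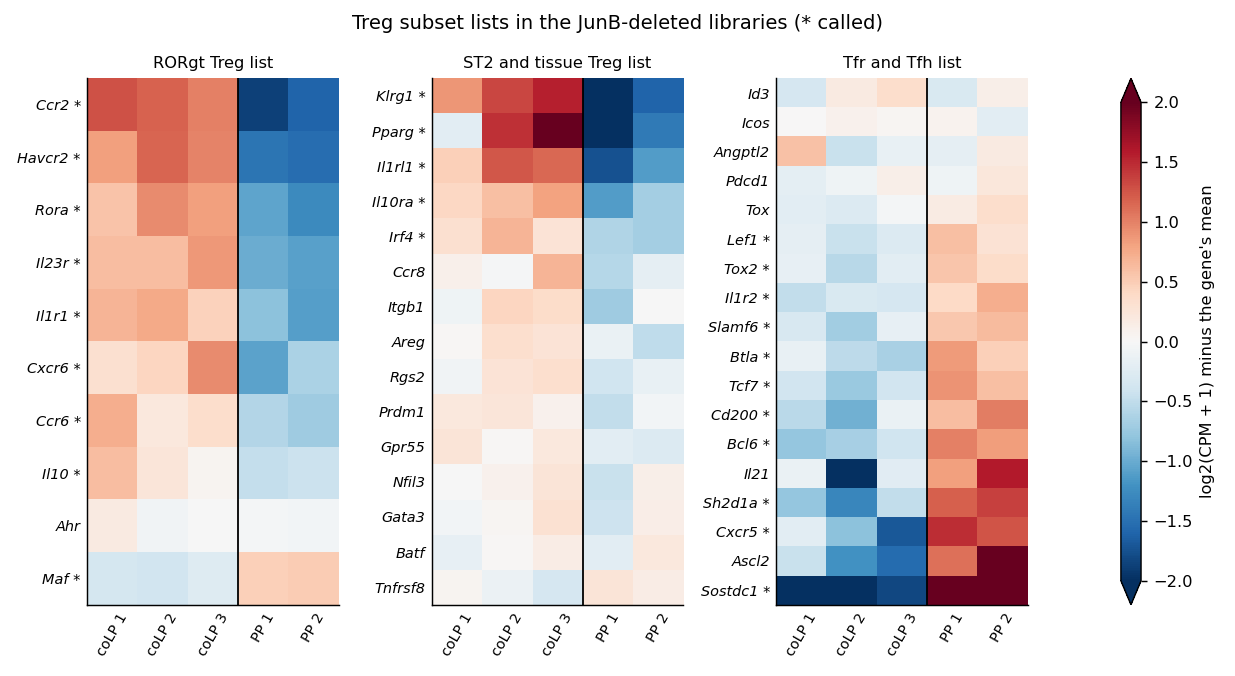
Heat maps of log2(CPM + 1) minus the mean of each gene over the 5 iKO libraries, for 10, 15 and 18 genes of the RORgt, ST2 and Tfr lists, sorted by the difference between sites and with colours capped at 2 in either direction. An asterisk marks a called gene and the vertical line separates coLP from PP. Of the RORgt genes drawn 8 are called higher in coLP, in the ST2 list 5 of 15, and in the Tfr list 11 of 18 are called lower.

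In the list of ST2+ and tissue Tregs, the receptors Klrg1, Il1rl1 and Il10ra and the transcription factors Pparg and Irf4 were higher in coLP. The receptors Ccr8, Tnfrsf8 and Gpr55 and the transcription factors Gata3 and Batf were among the genes that did not pass the test. Klrg1 (chromosome 6, 122270596 to 122282882), an inhibitory receptor, stood at 309.9, 426 and 497 CPM in coLP and 36.4 and 54.7 in PP, 9.03-fold higher (FDR 0.00457). Il1rl1, the gene of ST2, was 5.32-fold higher, at 216, 369 and 343 CPM against 45.7 and 70.6. Pparg, a nuclear receptor of tissue Tregs, was low and uneven, at 4.11, 15.2 and 26 CPM against 0.434 and 1.21. Its coLP values had the same order as the sum of epithelial markers in these libraries (437, 1300 and 3720 CPM), whose part in this difference was not tested. Il10ra and Irf4 were the remaining genes called. Gata3 overlapped between sites, at 743, 792 and 959.5 CPM against 579 and 851, as did Batf, at 205, 235 and 255 against 199.6 and 268. Areg, the growth factor amphiregulin, did not overlap (495, 615 and 584 CPM against 442 and 341), with an FDR of 0.0859. In all, 5 of 15 genes were called, all higher, with a median log2 fold change of 0.53, but 0 and 1 were called without PP replicate 1 and without PP replicate 2.

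Most genes of the list for Tfr and follicular helper T cells were lower in coLP. Of 18 genes, 11 were called lower and none higher, the median log2 fold change was -1.04, and 14 did not overlap between sites in that direction, against 22.3% of all genes tested. Bcl6, the defining repressor of follicular T cells, gave 62.6, 68 and 81.9 CPM in coLP and 219 and 193 in PP (2.91-fold lower, FDR 0.00468). Cxcr5, the receptor that brings cells into follicles, gave 54.2, 35.1 and 18.6 CPM against 177 and 152. Sostdc1, a secreted protein made by follicular T cells, showed the widest difference of the list: it was counted at 1.71, 0 and 2.57 CPM in coLP and at 173 and 185 in PP. Tcf7, which encodes TCF-1, gave 578, 449 and 577 CPM against 1406 and 1136, and its relative Lef1 gave 127, 104 and 118 against 218 and 175. Sh2d1a (the adaptor SAP), Slamf6, Btla, Cd200, Tox2 and Il1r2 were also called lower. Pdcd1, the gene of PD-1, overlapped between sites at 711, 771 and 885 CPM against 770.2 and 955, and so did Icos. In iHET 3 of the 11 were called, Sostdc1, Sh2d1a and Btla, and 10 of the 11 had the same sign, Il1r2 being the exception. Without PP replicate 1 none of the 18 was called, without PP replicate 2 only 1, and without coLP replicate 2 there were 7. Of 18 B cell markers 4 were called lower in coLP and 14 were not called. Their summed level was 1480, 1090 and 970 CPM in coLP and 1640 and 1760 in PP, and without Ighm, the constant region of IgM, it was 1170, 900.0 and 640.0 in coLP and 632 and 717 in PP, where the sites overlapped. The part of B cells in the result was not tested.

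The core Treg list was split. Tnfrsf9 (4-1BB), Tnfrsf18 (GITR), Tnfrsf4 (OX40) and Capg were higher in coLP and Ikzf2, Izumo1r, Itgb8, Trbc2 and Cd3e lower, 4 and 5 of 18, with a median log2 fold change of -0.21. Tnfrsf9 gave 1533, 1940.0 and 1617 CPM against 573 and 624. Ikzf2, which encodes Helios, a factor common in thymus-derived Tregs, gave 284, 316 and 272 CPM against 524 and 548. Itgb8, whose integrin activates latent TGF-β, gave 35.2, 26.2 and 44.1 CPM against 132 and 126. No coLP value of these 3 genes reached into the PP range. Foxp3 overlapped between sites, at 116, 134 and 79.8 CPM against 87.3 and 74.2 (FDR 0.26), and Ctla4, at 2580.0, 2303 and 2294 CPM against 1844 and 1793, fell just short of the threshold (FDR 0.055).

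The IL-2 receptor pathway includes the gene of the sort gate. Il2ra, which encodes CD25, gave 725, 732 and 626 CPM in coLP and 244 and 210.4 in PP, and since the PP cells were sorted as CD25-, gate and site cannot be told apart for this gene. Among targets of STAT5, which signals below the receptor, Cish, Socs2 and Bcl2l1 were called. Cish gave 543, 571 and 578 CPM against 270.0 and 284, and Socs2 gave 112, 158 and 138 against 22.2 and 38.8, so that neither gene overlapped between sites. With Il2ra and Bcl2l1 these were the 4 genes called among 15, all higher and all also called in iHET. The other 11 did not pass the test. Over all 15 genes the median log2 fold change was 0.36. The signal-transducing chains Il2rb and Il2rg did not pass the test (FDR 0.0945 and 0.0777).

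Receptors that guide migration separated the sites in both directions. Gpr15 (chromosome 16, 58717433 to 58719070), which directs Tregs to the colon, gave 63.9, 74.3 and 73.8 CPM in coLP and 17 and 22.6 in PP, 3.57-fold higher. Ccr9 (chromosome 9, 123678439 to 123784330), the receptor for the small-intestinal chemokine CCL25, was 6.71-fold lower, at 39.1, 27.9 and 19.6 CPM against 198 and 189, although 2201 of its exon bases are shared with neighbouring genes. Among chemokine receptors 7 of 17 were called higher (among them Ccr1, Ccr2, Ccr4, Ccr6, Ccrl2 and Cxcr6) and 3 lower (Ccr9, Cxcr4 and Cxcr5), with a median log2 fold change of 1.10. Ccr1 gave 29.4, 27.3 and 18.8 CPM against 3.53 and 2.72. In the list for gut homing, retention and egress 6 of 20 were higher and 3 lower. Its Itgb7, a chain of the mucosal integrin α4β7, gave 1419, 1589 and 1552 CPM against 974 and 979. Klf2, a factor that promotes egress, was higher in coLP (1286, 1765 and 1267 CPM against 804 and 587), whereas its target S1pr1 (244, 277 and 186 against 354 and 161) overlapped. Itgae, the CD103 chain, read 324, 372 and 549 CPM against 570.5 and 545 and did not pass the test (FDR 0.266). The list of central and lymphoid Tregs, which shares Tcf7, Lef1 and Klf2 with those above, had 1 gene higher and 3 lower of 11.

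**Figure D3:**
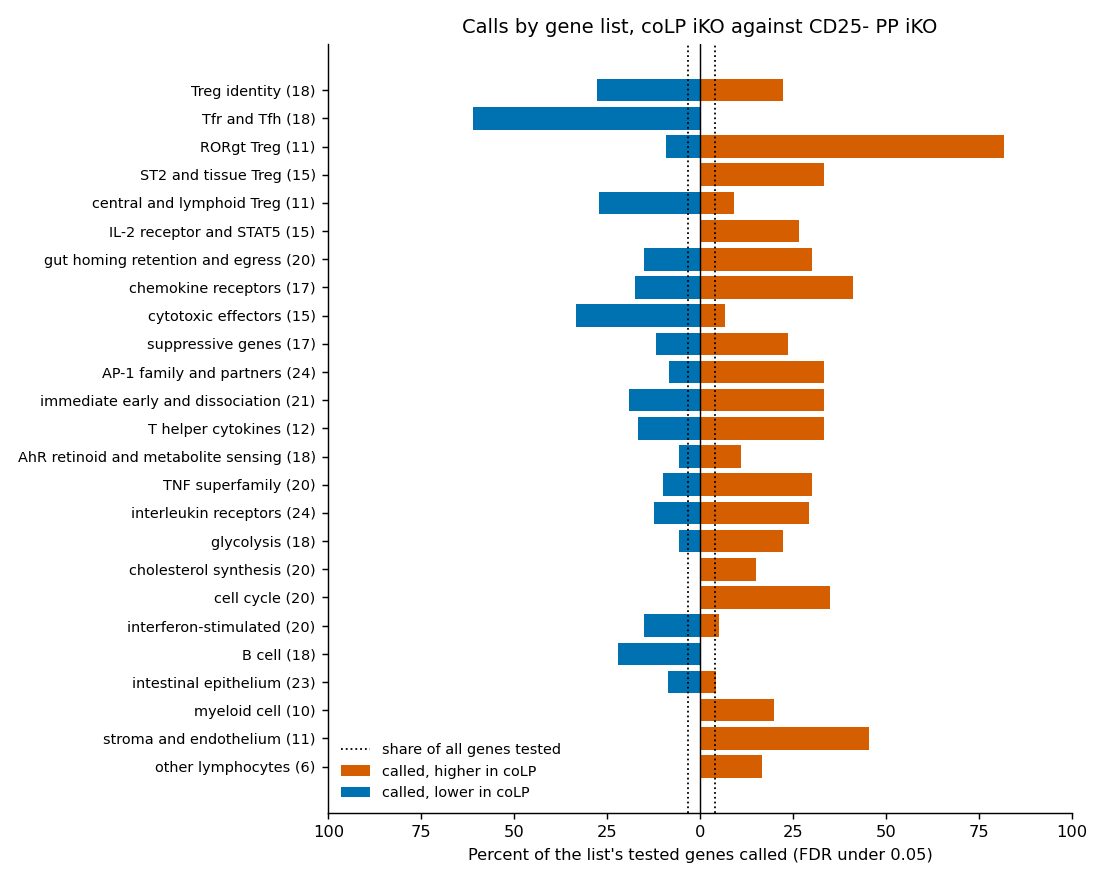
Share of each list's tested genes called higher (orange, right) and lower (blue, left) in coLP iKO against CD25- PP iKO, with the number tested in brackets; dotted lines mark 4.03% and 3.27%, the shares over all genes tested. The RORgt list extends farthest to the right, with 9 of 11 genes, and the Tfr list farthest to the left, with 11 of 18.

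Cytotoxic genes were lower in coLP in 5 of 15 and higher in 1, with a median log2 fold change of -0.86. Gzma, which encodes granzyme A, gave 17.9, 5.49 and 19.3 CPM in coLP and 157 and 182 in PP (11.9-fold lower, FDR 0.0143). Ccl5 gave 7.16, 8.73 and 10.3 CPM against 25.6 and 92.5, and Nkg7, Ctsw and Cst7 were lower by less. In the normalization over 10 libraries, PP replicates 1 and 2 held Cd8a, of CD8 T cells, at 2.13 and 23.2 CPM, in the order of Ccl5. Klrb1c, of NK cells, went the other way, at 9.18 and 2.59. The part of such cells in these values was not tested. Serpinb9, an inhibitor of granzyme B, was the gene called higher. Gzmb (chromosome 14, 56258838 to 56262260) overlapped between sites without JunB, at 200.4, 188 and 85.4 CPM against 140.4 and 161 (log2 0.07 ± 0.34, FDR 0.919). In iHET it was higher in coLP, at 383, 374 and 379 CPM against 159 and 117 in the normalization over 10 libraries (log2 1.46, FDR 0.0218), and the difference between the 2 contrasts had an unadjusted p of 0.00929 and an FDR of 1.00. Among genes of suppression, 4 of 17 were higher, namely Il10, Havcr2, Lgals1 and Fgl2, which encodes a secreted suppressive protein (343, 410.2 and 471 CPM against 132 and 192). Lower were Itgb8 and Nt5e, the gene of CD73, at 463, 393 and 481 CPM against 751 and 919.8.

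The relatives and partners of JunB differed between sites in its absence. Of 24 genes, 8 were higher in coLP and 2 lower, with a median log2 fold change of 0.42. Jun gave 1376, 1522 and 1535 CPM in coLP and 902 and 1018 in PP, and Fosb gave 579.5, 1231 and 562 against 219.9 and 171. Atf3, a stress-induced partner, gave 186, 401 and 306 CPM against 33 and 57.3 (6.59-fold, FDR 0.0168). Irf4 gave 248, 317 and 239.6 CPM against 130.3 and 124. None of these 4 genes overlapped between sites. Atf4, Irf8 and, at low levels, Fosl1 were also higher, and Maf and Nfatc1 were lower. Jund did not overlap (1242, 1652 and 1275 CPM against 917 and 902) and missed the threshold with an FDR of 0.0528, and Fos, at 2088, 2836 and 2760.0 CPM against 1673 and 2056, did not pass it (FDR 0.142).

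Some of these genes also respond to cell isolation, and in the list of immediate early and dissociation genes 7 of 21 were higher and 4 lower. Besides Jun and Fosb, the genes Ier2, Ier3, Ier5, Zfp36 and Klf6 were higher in coLP, but Egr2 was 3.49-fold lower, at 84.3, 91.2 and 64.7 CPM against 272 and 288, and Egr3, Nr4a2 and Btg2 were lower as well. Nr4a1 (3792, 4971 and 3399 CPM against 3803 and 3501) and Dusp1 (5015, 5668 and 6497 against 4853 and 5997) overlapped. The heat shock gene Hspa1b gave 555, 3428 and 2892 CPM in coLP and 182 and 1978 in PP (FDR 0.566), lowest in the replicate 1 library of each site, and the sites overlapped. Its near-identical neighbour Hspa1a followed the same order, and reads that map to both were left out of the counts. The part of the digestion and of the other preparation steps in these values was not tested.

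Of 12 cytokine genes 4 were called higher in coLP, 2 lower and 6 were not called, with 1.35 as the median log2 fold change. Csf2, which encodes GM-CSF, gave 7.69, 8.53 and 8.44 CPM in coLP and 0.651 and 0.698 in PP, 11.7-fold higher. Il17f gave 11.5, 6.62 and 14.9 CPM against 1.15 and 0.294, and Il22 gave 3.3, 9 and 5.37 against 0.713 and 0.514. Il5 was at 0.934, 2.07 and 3.49 CPM in coLP and at no more than 2 counts in either PP library. Il4, a product of follicular T cells as well, was lower in coLP, at 11.6, 15.5 and 22.7 CPM against 36.2 and 62.5, as was Cd40lg. Ifng (FDR 0.0717) and Il17a (FDR 0.117) did not pass the test. The part of other cell types, whose markers are described below, in these mostly low values was not tested.

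Of 24 interleukin and related cytokine receptors, 7 were higher and 3 lower, with a median of 0.13. Il12rb1, the chain shared by the IL-12 and IL-23 receptors, gave 159.5, 156 and 124 CPM in coLP against 55.8 and 61.1, and Ifngr1, of the interferon-γ receptor, gave 1381, 1545 and 1289 against 691 and 616. Il4ra was also higher, and Il6ra and Tgfbr3 were lower beside Il1r2. In the TNF superfamily, 6 of 20 genes were higher and 2 lower. Tnfrsf11a, which encodes RANK, was uneven in coLP, at 9.53, 31.7 and 38.3 CPM against 1.7 and 2.53, in the order of the epithelial sum, whose part was not tested. Lta, the cytokine lymphotoxin α, gave 65.6, 53.9 and 54.2 against 35.4 and 36.8. Cd27 was 2.01-fold lower in coLP.

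In the cell cycle list 7 of 20 genes were called higher and none lower, the median log2 fold change was 0.87, and 19 of 20 were higher in every coLP library than in both PP libraries, against 22.9% of all genes tested. Mki67, a marker of cycling cells, gave 36.4, 26.4 and 23.3 CPM against 16.4 and 14.3 (FDR 0.0624), and Ccna2, Ccnb2, Aurka, Birc5, Cdc20, Pcna and Cenpf were the genes called. Without coLP replicate 1 there were 3 such calls, without coLP replicate 2 there was 1, and without either PP library there was none, and the fit of all 10 libraries also called none. Of 18 glycolysis genes Slc2a1, Hk2, Eno1 and Ldha were higher and the lactate exporter gene Slc16a3 was lower, with Hk2 at 14.8, 28.3 and 21.4 CPM against 5.58 and 5.22. Of 20 cholesterol synthesis genes 3 were higher, Hmgcs1 and Mvd among them, against 4.03% of all genes tested. Among interferon-stimulated genes 1 of 20 was higher, near the 4.03% of all genes tested, and 3 were lower, against 3.27%. Isg15, a ubiquitin-like modifier, gave 46.1, 51 and 43.1 CPM in coLP against 100.3 and 98 in PP. Among genes that sense retinoids, aryl hydrocarbons and metabolites 2 of 18 were higher, Rara and Ffar2, against 4.03% of all genes tested. Hic1 alone was lower, against 3.27%. These calls are few and were not tested against those shares. Rara, a retinoic acid receptor, gave 124, 149.9 and 102 CPM against 64.3 and 55.1.

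Markers of other cell types were present and uneven. Epithelial markers summed to 437, 1300 and 3720 CPM in the coLP libraries and to 326 and 290 in PP. Of 23 such markers 1 was called higher, near the 4.03% of all genes tested, and 2 lower, against 3.27%, or 13 in all without coLP replicate 1. Car1, an enzyme of colon epithelium, read 179.5, 202 and 1408 CPM in coLP against 0 and 1 count in PP, whereas Apoa1, a product of small-intestinal epithelium, was at 3 counts or fewer in each coLP library and at 2.97 and 18.4 CPM in PP. Stromal markers summed to 1130, 967 and 198 CPM in coLP and 153 and 119 in PP, and 5 of 11 were called higher, or 1 without coLP replicate 1 and 0 without coLP replicate 2. Col3a1, a fibrillar collagen, gave 617, 481 and 36.9 CPM against 8.15 and 5.77. Myeloid markers summed to 237 to 370 CPM against 154 and 179, with 2 of 10 called higher (Cd14 and C1qa), or 6 in all without coLP replicate 3 and 0 without coLP replicate 2. Markers of other lymphocytes summed to 120 to 230 against 48.2 and 70.9, where Kit was the 1 of 6 called. Kit made up most of the coLP sums, at 94.2, 218 and 150 CPM against 15.5 and 22.6 in PP (normalization over 10 libraries). Among those not called, Cd8a (1.03, 1.06 and 0.825 against 2.13 and 23.2) and Klrb1c (1.81, 0.528 and 0 against 9.18 and 2.59) were lower in coLP. Tcrg-C1 was higher there (7.66, 6.76 and 14.8 against 3.04 and 3.42), and Cd8b1 and Trdc overlapped between sites. Of the defining markers, Ncr1 of NK cells was too low in every library to be tested. Epithelial and stromal sums ran in opposite orders over the coLP libraries and differed several-fold between coLP replicates 1 and 3. With coLP replicate 3 left out, 1145 genes were called. Ighm was 3.57-fold lower in coLP, while the B cell gene Ms4a1 overlapped between sites (32.4, 32.1 and 45.7 CPM against 39.4 and 47.9). The part of such cells in the differences between sites was not tested.

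**Figure D4:**
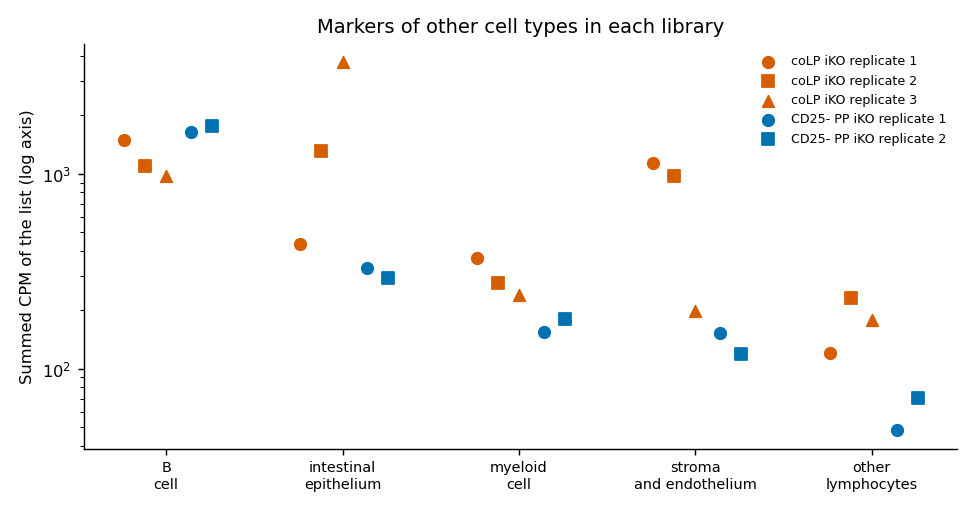
Summed CPM, on a log axis, of the marker lists of 5 other cell types in each iKO library, coLP in orange and PP in blue. Epithelial markers reach 3720 CPM in coLP replicate 3, which has the lowest stromal sum of the coLP libraries, 198 CPM. In the list of other lymphocytes, Kit makes up most of the coLP sums.

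The same site contrast in iHET called 430 of 17238 genes (2.49%), 285 higher (1.65%) and 145 lower (0.841%) in coLP. Scaled by library size alone, 228 were higher and 226 lower, with the median over all genes at -0.18. The iKO and iHET contrasts share no library, but per the study's methods each cage of coLP animals held 1 mouse of either genotype, so the coLP libraries of the 2 genotypes are not independent. The labels give no cage, and its part in what the contrasts share was not tested. Of the 407 iHET calls that were tested in iKO, 404 (99.3%) had the same direction without JunB and 282 (69.3%) were called there too, 200 higher and 82 lower. These 282 made 22.8% of the 1238 iKO calls tested in iHET, of which 1215 (98.1%) had the same direction, against 74.9% of all 16580 genes tested in both. Sizes were smaller without JunB for genes chosen by the iHET call, a choice that favours large iHET values. The 283 genes called higher in iHET had a median log2 fold change of 2.05 there and 1.5 in iKO, and the 124 called lower had -1.74 and -1.38. Across genes, which are not independent replicates, the fold changes of the 2 contrasts correlated with a Pearson r of 0.737 and a Spearman rho of 0.665.

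**Figure D5:**
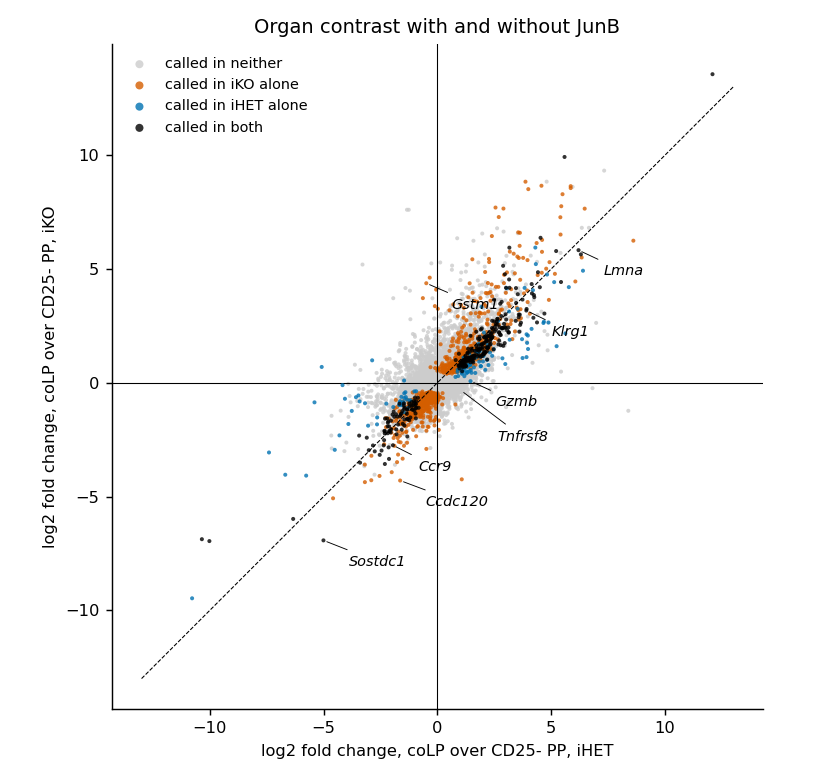
Log2 fold change of coLP over CD25- PP in iHET (x) and in iKO (y) for the 16580 genes tested in both, coloured by where each was called; the dashed line marks equal values. Genes called in both, such as Lmna (5.83 in iKO) and Sostdc1 (-6.93), lie away from 0 on the same side in both contrasts, while Gzmb (0.07) and Tnfrsf8 (-0.33) lie near 0 on the y axis.

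The difference between the contrasts was tested itself, with all 10 libraries in 1 fit. No gene of 18626 passed (edgeR's quasi-likelihood test), 622 (3.34%) had an unadjusted p under 0.05, and edgeR's likelihood ratio test and DESeq2 each called 2. Among genes that averaged at least 10 CPM in their higher group, predicted models aside, the lowest p, 0.000473, belonged to Tnfrsf8 (chromosome 4, 145267137 to 145315164), which encodes CD30: it gave 54.8, 58.3 and 76.5 CPM in coLP of iHET and 34.2 and 27.8 in PP of iHET, but 45.6, 39.95 and 34.6 in coLP and 51.6 and 48.2 in PP of iKO. For Lta the coLP values were 28.3, 26.01 and 29.7 CPM in iHET and 65.8, 53.1 and 54.2 in iKO, beside PP values of 30.2 and 39.0 in iHET and 34.7 and 36.5 in iKO. Adam8, a surface metalloprotease, was higher in coLP in both genotypes, by log2 2.90 in iHET and 1.62 in iKO. Hic1, a repressor induced by retinoic acid, was called lower in coLP of iKO and gave log2 0.25 in iHET. Gstm1, Gas2, Rab3ip, Cd9, Ccdc120 and Mapre2 completed the 10 lowest p-values among such genes. Among the 1267 iKO calls, 109 had an unadjusted p under 0.05 for the difference between contrasts and none passed.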

How the data were processed

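RNA-seq was performed on sorted Tregs with the SMARTer v4 kit, which does not mark strand. Per the labels and the study's methods, the authors trimmed reads with Trim Galore, omitted reverse reads, aligned to GRCm38 with STAR leaving out multi-mapped reads, and counted exon reads per GENCODE gene with featureCounts. Reads on exon bases shared by 2 genes were not assigned. The deposited values are raw counts per gene, of which 55394 of 55487 gene identifiers matched GENCODE release M21 for symbols and positions.

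Counts were analysed with edgeR 4.0.16 in R 4.3.3 (limma 3.58.1, DESeq2 1.42.0). A gene was kept if 2 or more of the 5 libraries reached 1 CPM, TMM factors were 0.951 to 1.041, and coLP was compared with PP by the quasi-likelihood F test with a prior count of 1 and Benjamini-Hochberg FDR under 0.05. CPM, fold changes and FDR are from this fit unless stated. The iHET sites were fitted in the same way, and the difference between contrasts was tested in a fit of 10 libraries. The level of 3 counts covers counting error only. The text names Junb, the 12 genes with the lowest p in each direction whose higher group averaged at least 10 CPM and whose groups did not overlap, list members, and the 10 lowest p-values of the difference between contrasts. Predicted gene models were passed over, and some genes that met the rule are not reported here. The gene lists (25, with 401 distinct genes, of which 378 were tested) and the comparison were chosen with earlier results of these data known, and the genes with printed promoter windows after their values were seen. Each library was labelled as a separate sample, but nothing states which sites share a mouse, so p-values measure the spread between these samples. Other tests, scalings, filters and covariates and the omission of each library were tried. The scripts were tested on simulated data. Figures were drawn with matplotlib 3.10.9.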

Additional observations from a re-analysis of the deposited data

How the results depend on the processing

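Of the genes called between sites without JunB, all that could be tested kept their direction under every alternative. Their groups did not overlap and the libraries were the same, so this was largely fixed by the call and is no measure of stability. The number called was 2149 by edgeR's exact test (1224 higher, 925 lower), 2235 by its likelihood ratio test, 3123 by DESeq2, 64 against a 2-fold difference, 3206 with no filter on low counts and 758 in the fit of 10 libraries. Sex as a term gave 897, and leaving out 1 library gave 48 to 1145. In iHET the same alternatives gave 1488 (exact test), 1552 (likelihood ratio test), 1937 (DESeq2), 2073 (no filter), 1201 (10 libraries), 139 (sex) and 2 to 756 with 1 library left out. The 282 genes called in both genotypes became 885, 930, 1209, 1353, 502 and 107 in the same order, and 1 to 450 with 1 library left out. For the difference between contrasts they gave 2 by the likelihood ratio test, 2 by DESeq2, 282 with no filter and 0 with any 1 library left out. Where a site held 1 library, that library was assumed to vary like those of the other site. DESeq2 size factors, upper quartiles, library size alone, a minimum of 10 counts in every library and a smaller prior count kept both site counts within 1.5 times, but library size alone turned the balance of higher and lower calls to 664 and 787 without JunB and to 228 and 226 in iHET.

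Deviations of same-numbered coLP and PP libraries from their site means correlated by 0.0831 (number 1) and -0.0562 (number 2). With 2 PP libraries the deviations of 1 mirror those of the other, so these values cannot decide whether the numbers pair mice. With the replicate number as a block, 1061 genes were called without JunB (706 higher, 355 lower), 49 in iHET, 43 in both and 0 for the difference between contrasts.

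None of the 131 named genes called between sites changed sign, although 175 values under other tests, scalings, filters or covariates and 275 with 1 library left out missed the threshold, against 1521 and 374 that passed. The groups of those 131 genes did not overlap, which left little room for a change of sign. Some of the 30 named genes not called changed sign. Batf gave a log2 difference of 0.031 with no filter, Dusp1 gave -0.0171 and S1pr1 0.12 under the replicate block, S1pr1 gave 0.055 with sex as a term, and Gzmb gave -0.00635 with library size alone. With 1 library left out, Batf ranged from -0.22 to 0.21, Dusp1 from -0.075 to 0.23, Gata3 from -0.0405 to 0.52, Gzmb from -0.13 to 0.38, Icos from -0.027 to 0.24, Nr4a1 from -0.011 to 0.27, Pdcd1 from -0.28 to 0.028, Rab3ip from -0.0511 to 0.28 and S1pr1 from -0.60 to 0.54. The cause was not tested. Depth limits the genes near 3 counts, such as Il5 and Car1 in PP and Apoa1 in coLP.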
